A study of Mus musculus with 15 samples.

Results

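The genes examined here make and remodel long fatty acids in mouse myotubes: the elongases Elovl1, Elovl5, Elovl6 and Elovl7, the stearoyl-CoA desaturases Scd1 and Scd2, the front-end desaturases Fads1 and Fads2, and the acetyl-CoA carboxylases Acaca and Acacb. They are 10 of the 14860 genes that a transcript cluster with exactly 1 gene symbol represented, and each had exactly 1 such cluster, so choosing the cluster with the highest mean discarded nothing. The genes were chosen by function together with measured differences from GFP on these same arrays, among them the changes of Elovl7 and Elovl6 in PGC-1a1 and of Scd1 in PGC-1a2. Those 3 changes are therefore given as descriptions, and their p-values are not independent evidence.

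Malonyl-CoA, which the acetyl-CoA carboxylases make from acetyl-CoA, is the carbon donor for fatty acid synthase and for the elongases of the endoplasmic reticulum. Stearoyl-CoA desaturases put a double bond into saturated acyl chains to give oleate and palmitoleate, and Fads1 and Fads2 add further double bonds to polyunsaturated chains. In muscle, malonyl-CoA made near the mitochondrial surface is also known as the inhibitor of the carnitine palmitoyltransferase step that admits fatty acids to oxidation.

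Primary mouse myoblasts, the precursor cells of muscle, were differentiated into multinucleate myotubes and transduced at 48 h with adenoviral vectors (multiplicity of infection 100). The control vector carried GFP alone. The other vectors carried GFP together with 1 of the mouse isoforms PGC-1a1, PGC-1a2, PGC-1a3 and PGC-1a4 of the transcriptional coactivator encoded by Ppargc1a, each under a promoter separate from that of GFP. All 5 groups received fresh differentiation medium after 12 h, RNA was taken at about 60 h, and each group had 3 exon arrays. Whether the arrays of a group came from separate cultures is not stated in the labels. The p-values therefore rest on the spread between samples that may be technical replicates. Forced expression from a virus shows what an introduced isoform does in culture, not what its natural level does. Because the RNA is a bulk extract, fewer expressing cells and less RNA per cell cannot be told apart.

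The median signal of an array was 5.476 to 5.659 log2, and precision is limited by having 3 arrays per group. All 150 values of the 10 genes lay above the lower quartile of their own array. In PGC-1a1 the Ppargc1a signal rose by 4.08 ± 0.16 log2 (SE, n = 3 per group, limma adjusted p = 6.2e-08). In PGC-1a4 it rose by 1.93 ± 0.16 (adjusted p = 8.1e-06), while its differences of 0.35 in PGC-1a2 (adjusted p = 0.22) and 0.42 in PGC-1a3 (adjusted p = 0.14) did not pass. The isoforms carry different exons, so this signal does not measure dose. The level of the introduced PGC-1a2 and PGC-1a3 transcripts was thus not shown by these arrays. For PGC-1a4 the sample source in the labels names isoform 1 and the titles name PGC-1a4. The titles were followed. GFP replicate 2 stood apart, with correlations across clusters as low as 0.982 to the other GFP arrays against 0.988 or more within the isoform groups, so results that depend on it are given with and without it. Myotube markers were abundant, with array medians of 10.18 to 10.71 log2 over the 13 of 17 that were measured. Of those 13, 0 rose in any isoform against GFP, and the number that fell was 5 in PGC-1a1, 4 in PGC-1a2, 4 in PGC-1a3 and 3 in PGC-1a4. Of all clusters, 2.4%, 4.77%, 2.97% and 7.22% were called lower in these contrasts and 4.44%, 4.56%, 5.02% and 7.05% higher. Of 5 myoblast markers, with array medians of 8.94 to 9.26, 1 rose in PGC-1a1, 1 rose and 1 fell in PGC-1a2, 0 were called in PGC-1a3 (1 higher and 2 lower at an unadjusted p under 0.05), and 1 rose and 2 fell in PGC-1a4. The part of these marker changes in the results was not tested. Adipocytes and liver cells are rich in several of these enzymes. Over the 7 measured adipocyte markers the summed signal was 7.50 to 8.05 log2 in GFP and 7.49 to 7.87 in the isoform groups, and limma called 0 of the 7 against GFP in every isoform (1, 0, 0 and 2 at an unadjusted p under 0.05 in PGC-1a1 to PGC-1a4). Array medians of those 7 were 4.41 to 5.20, above the lower array quartiles of 3.857 to 4.047. Group means ranged from 3.02 to 3.11 for Fabp4, 3.35 to 3.80 for Lep and 3.55 to 4.03 for Adipoq, but from 6.07 to 6.20 for Plin1 and 5.21 to 5.44 for Cidec. Of 4 hepatocyte markers 2 were measured, Alb at 3.80 to 4.06 and Ttr at 4.05 to 4.21, and limma called 0 of them against GFP (0 at an unadjusted p under 0.05).

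**Figure D1:**
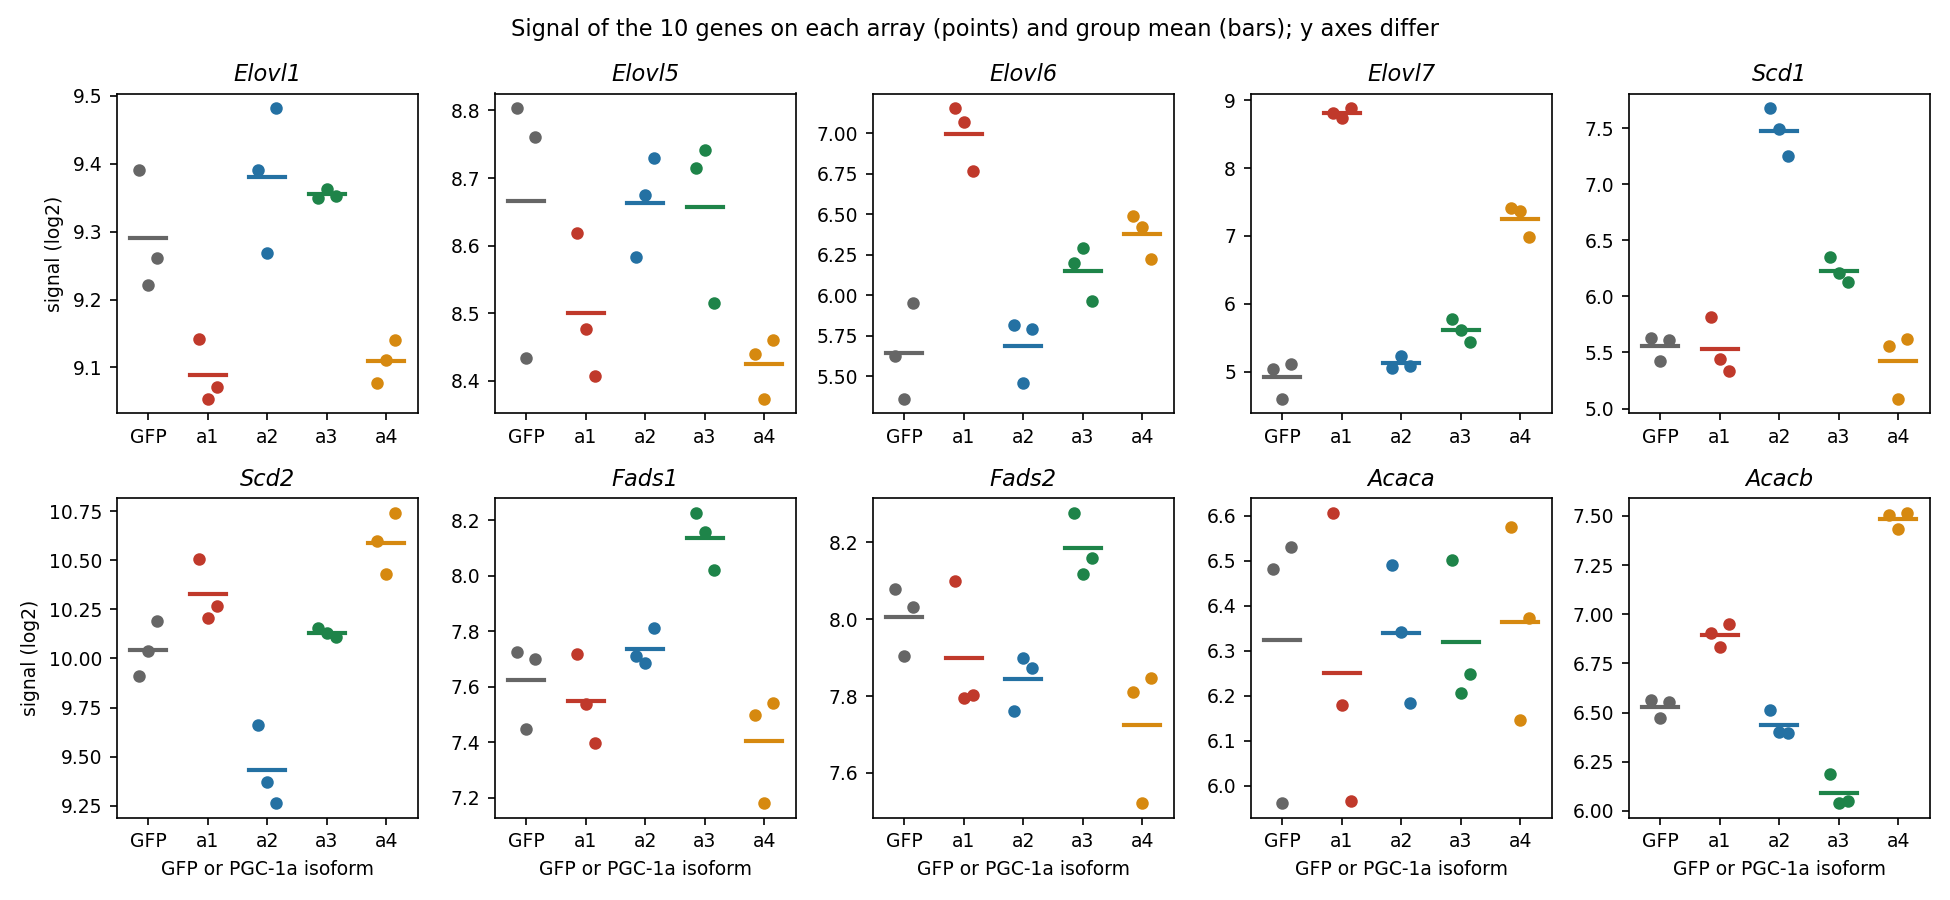
Signal of each of the 10 genes in log2 (y axis, which differs between panels) on the 3 arrays of GFP and of each isoform (a1 to a4 stand for PGC-1a1 to PGC-1a4), with bars at group means. Elovl7 on the PGC-1a1 arrays sits between 8.74 and 8.89 and on the GFP arrays between 4.60 and 5.12, while the Acaca groups overlap.

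The isoforms split the set. PGC-1a1 and PGC-1a4 went with higher Elovl7, Elovl6 and Acacb, PGC-1a2 went with higher Scd1 and lower Scd2, and PGC-1a3 went with higher Scd1, Fads1 and Elovl7 and lower Acacb. In PGC-1a1, 3 of the 10 genes rose and 0 fell (1 lower at an unadjusted p under 0.05), in a contrast in which limma called 6.84% of all clusters, 4.44% higher and 2.4% lower. In PGC-1a2, 1 rose and 1 fell, against 9.33% of all clusters called (4.56% higher, 4.77% lower). In PGC-1a3, 3 rose and 1 fell, against 7.99% (5.02% higher, 2.97% lower). In PGC-1a4, 4 rose and 0 fell (3 lower at an unadjusted p under 0.05), against 14.3% (7.05% higher, 7.22% lower). Elovl7, Elovl6 and Scd1 were chosen partly by their values on these arrays, so their part of these counts is a description. Among the other 7 genes limma called 1, 1, 2 and 2 in PGC-1a1, PGC-1a2, PGC-1a3 and PGC-1a4. The medians of the 10 differences were -0.05, 0.03, 0.13 and -0.05 log2 in PGC-1a1, PGC-1a2, PGC-1a3 and PGC-1a4, close to the medians over all clusters of -0.03, -0.03, -0.02 and -0.02. The medians thus stayed near those of all clusters while single enzymes differed. An F-test over the 5 groups called 8 of the 10, Elovl7, Elovl6 and Scd1 among them, where 31.3% of all clusters were called. Not called were Elovl5 (adjusted p = 0.22) and Acaca (adjusted p = 0.99). All 4 of these comparisons share the GFP arrays, so their values stand side by side and no relation between them was computed.

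**Figure D2:**
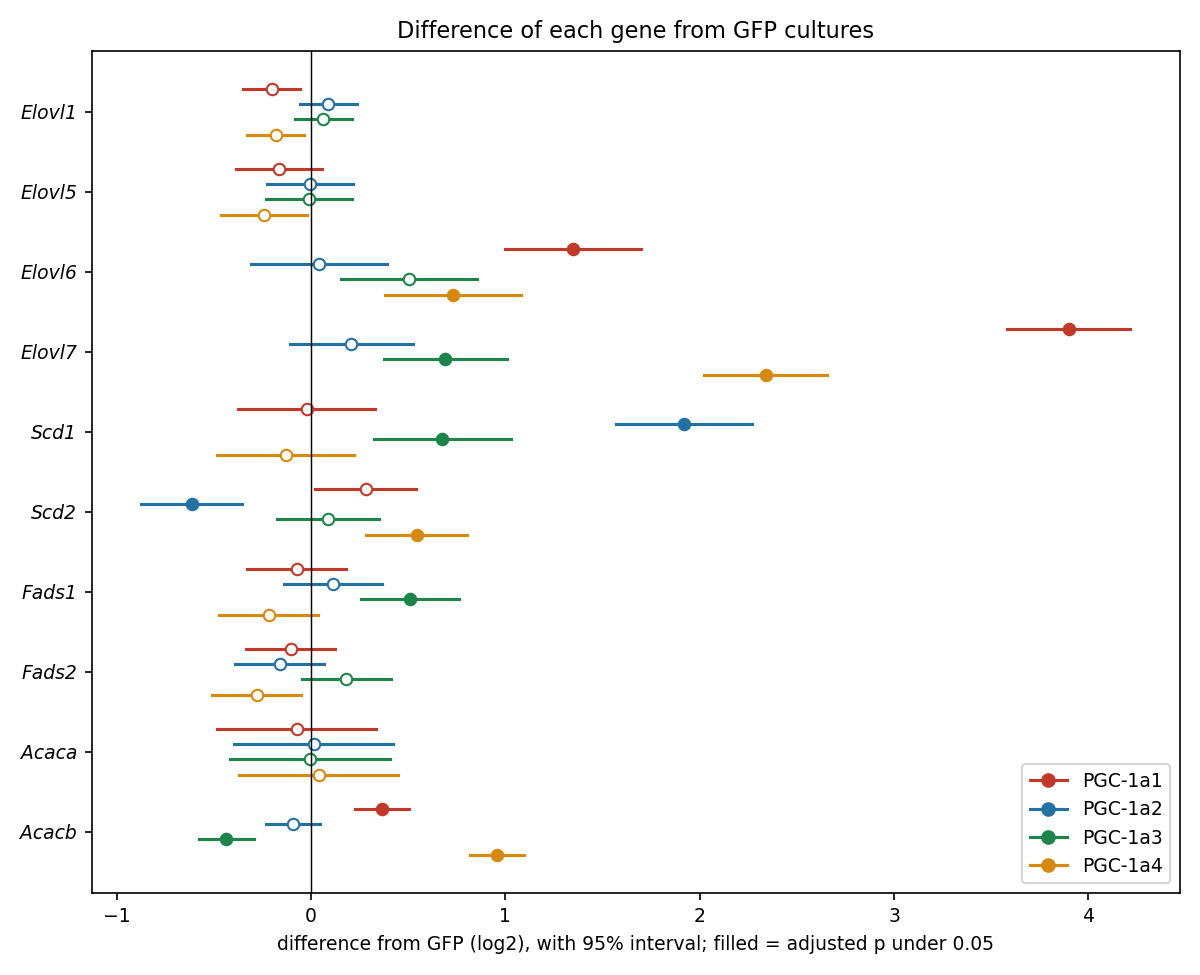
Difference of each gene's mean from GFP in log2 (x axis) for the 4 isoforms, with 95% intervals from limma over 15 arrays. Filled points have an adjusted p under 0.05, and the farthest from 0 is Elovl7 in PGC-1a1 at 3.90.

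Among the elongases, Elovl7, which lengthens saturated and monounsaturated long-chain acyl-CoAs, had the largest differences from GFP. Its signal was 5.03, 4.60 and 5.12 log2 on the GFP arrays, 8.82, 8.74 and 8.89 in PGC-1a1, 5.06, 5.23 and 5.08 in PGC-1a2, 5.77, 5.61 and 5.43 in PGC-1a3, and 7.41, 7.37 and 6.99 in PGC-1a4. The PGC-1a1, PGC-1a4 and PGC-1a3 arrays were all above every GFP array, in that order from the highest, and PGC-1a2 overlapped GFP. Elovl7 was higher by 3.90 ± 0.15 log2 in PGC-1a1 (14.9-fold, adjusted p = 6.2e-08), and in that contrast it ranked 1 of 23332 clusters by p. It rose by 2.34 ± 0.15 in PGC-1a4 (5.06-fold, adjusted p = 1.7e-06) and by 0.69 ± 0.15 in PGC-1a3 (adjusted p = 0.013). The PGC-1a3 call was lost without PGC-1a3 replicate 1 (adjusted p = 0.063) and when only those 2 groups were fitted (adjusted p = 0.16). In PGC-1a2 the difference was 0.21 (95% interval -0.11 to 0.52, adjusted p = 0.48).

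Elovl6, the elongase that converts palmitate to stearate, followed at a smaller size. Its signal was 5.62, 5.36 and 5.96 log2 in GFP, 7.16, 7.07 and 6.77 in PGC-1a1, 5.82, 5.46 and 5.79 in PGC-1a2, 6.20, 6.29 and 5.97 in PGC-1a3, and 6.49, 6.42 and 6.22 in PGC-1a4. PGC-1a1 and PGC-1a4 lay above all GFP arrays, the lowest PGC-1a3 array only just did, and PGC-1a2 lay within the GFP range. Elovl6 was higher by 1.35 ± 0.16 log2 in PGC-1a1 (2.55-fold, adjusted p = 3e-04) and rose by 0.73 ± 0.16 in PGC-1a4 (adjusted p = 0.0086, and 0.072 with only those 2 groups fitted). In PGC-1a3 the difference of 0.51 (adjusted p = 0.08) did not pass, though it did with the filter at percentile 50 (adjusted p = 0.037), with only clusters of 1 symbol (0.046) and without GFP replicate 3 (0.66, adjusted p = 0.038). In PGC-1a2 it was 0.04 (95% interval -0.31 to 0.39).

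The remaining elongases were not called against GFP, though some of their differences passed under other settings. Elovl1, which makes very long saturated chains used in sphingolipids, was 9.39, 9.22 and 9.26 log2 in GFP, 9.14, 9.05 and 9.07 in PGC-1a1 and 9.08, 9.11 and 9.14 in PGC-1a4. All arrays of those 2 isoforms lay below the GFP arrays, yet the differences of -0.20 ± 0.07 and -0.18 ± 0.07 (adjusted p = 0.1 for each) did not pass. They passed with quantile normalization (adjusted p = 0.031 and 0.032), the filter at percentile 50 (0.037 and 0.038), a variance trend (0.043 and 0.046) and the interquartile-range covariate (0.048 and 0.048), and in PGC-1a1 also with array weights (0.035), so these calls turn on the setting. In PGC-1a2 and PGC-1a3 Elovl1 was at 9.27 to 9.48 and 9.35 to 9.36, differences from GFP of 0.09 and 0.06. Elovl5, an elongase of polyunsaturated chains, ranged from 8.37 to 8.80 over the 15 arrays, and its difference farthest from 0 was -0.24 in PGC-1a4 (95% interval -0.46 to -0.02, adjusted p = 0.16). Without GFP replicate 2, whose Elovl5 signal was the lowest of the GFP arrays, that difference was -0.36 (adjusted p = 0.018). It also passed with quantile normalization (adjusted p = 0.034), array weights (0.014) and the covariate (0.005), and the PGC-1a1 difference of -0.17 (adjusted p = 0.45) became -0.27 with array weights (adjusted p = 0.032) and -0.29 with the covariate (adjusted p = 0.015). The Elovl5 differences were 0.00 in PGC-1a2 (95% interval -0.22 to 0.22) and -0.01 in PGC-1a3 (95% interval -0.23 to 0.21).

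Windows around the transcription start were examined for the 3 genes that both PGC-1a1 and PGC-1a4 raised, Elovl7, Elovl6 and Acacb. The sequences below, from RefSeq on GRCm38.p6, run from 250 bases before to 50 after a transcription start given by RefSeq, on the plus strand. That start is the outer end of the gene for Elovl6 and lies 78 bases inside it for Elovl7. For Acacb it lies 19197 bases inside the gene, so it is an internal start and the window says nothing of the gene's outermost promoter. Capitals mark the motif matches listed after them.

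Elovl7, chr13:108214154-108214453: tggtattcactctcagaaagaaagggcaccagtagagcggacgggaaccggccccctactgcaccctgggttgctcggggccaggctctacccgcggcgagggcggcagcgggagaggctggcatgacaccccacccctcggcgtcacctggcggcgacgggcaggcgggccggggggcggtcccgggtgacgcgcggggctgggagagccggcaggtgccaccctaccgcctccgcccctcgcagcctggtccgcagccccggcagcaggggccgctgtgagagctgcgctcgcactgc

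Elovl6, chr3:129532136-129532435: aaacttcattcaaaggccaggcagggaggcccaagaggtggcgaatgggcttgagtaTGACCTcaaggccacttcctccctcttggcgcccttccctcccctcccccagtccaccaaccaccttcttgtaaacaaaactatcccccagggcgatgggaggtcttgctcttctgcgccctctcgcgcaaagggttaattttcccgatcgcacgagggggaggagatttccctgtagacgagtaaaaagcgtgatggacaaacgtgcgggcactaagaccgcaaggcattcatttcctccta

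Acacb, chr5:114165268-114165567: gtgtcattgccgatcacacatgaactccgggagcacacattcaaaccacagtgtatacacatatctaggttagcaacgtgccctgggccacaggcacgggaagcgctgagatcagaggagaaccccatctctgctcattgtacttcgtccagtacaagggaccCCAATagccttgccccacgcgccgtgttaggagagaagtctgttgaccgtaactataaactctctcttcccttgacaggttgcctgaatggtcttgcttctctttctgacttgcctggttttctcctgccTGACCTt

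The letters searched on both strands were TCAAGGTCA, an element bound by estrogen-related receptors, AGGTCA, the shorter nuclear receptor element that is contained in it, TCACNCCAC, a sterol regulatory element, CACGTG, an E-box, and CCAAT, the NF-Y box. Elovl7 held none of them. Elovl6 held AGGTCA on the other strand at window position 58, and Acacb held it on the other strand at position 294 and CCAAT at position 164, counted from 1 at the left end. Over 32851 windows of the same length AGGTCA was found in 16.3% and CCAAT in 37.4%. TCAAGGTCA was in 0.423% of windows, TCACNCCAC in 1.24% and CACGTG in 7.15%. In the windows not printed, Elovl1 held AGGTCA at position 156 of one window and CCAAT at position 216 of another. Elovl5 held CACGTG at position 90 and CCAAT on the other strand at positions 180 and 234. Acaca and Fads2 held none of the motifs. The starts for Elovl1 and Acaca lie inside their genes. All these matches describe the letters in the windows only. Windows were given for 7 of the 10 genes, and Scd1, Scd2 and Fads1 were not analysed here.

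Among the desaturases, Scd1 and Scd2, which carry out the same reaction, moved in opposite directions in PGC-1a2. Scd1 was 5.63, 5.42 and 5.61 log2 in GFP, 5.82, 5.44 and 5.34 in PGC-1a1, 7.68, 7.49 and 7.25 in PGC-1a2, 6.35, 6.21 and 6.13 in PGC-1a3, and 5.56, 5.09 and 5.62 in PGC-1a4. The PGC-1a2 arrays stood above all others, the PGC-1a3 arrays above GFP, and PGC-1a1 and PGC-1a4 overlapped GFP. Scd1 was higher by 1.92 ± 0.16 log2 in PGC-1a2 (3.78-fold, adjusted p = 6.6e-05) and rose by 0.68 ± 0.16 in PGC-1a3 (adjusted p = 0.024). The PGC-1a3 call did not hold without GFP replicate 2 (0.61, adjusted p = 0.077), GFP replicate 3 (adjusted p = 0.058), PGC-1a3 replicate 1 (adjusted p = 0.1), PGC-1a3 replicate 2 (adjusted p = 0.073), when only those 2 groups were fitted (adjusted p = 0.094), or with each array's interquartile range as a covariate (adjusted p = 0.06). Differences of -0.02 in PGC-1a1 (95% interval -0.37 to 0.33) and -0.13 in PGC-1a4 (95% interval -0.48 to 0.22) did not pass.

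Scd2, the desaturase prominent in brain and in developing tissue, was 9.91, 10.04 and 10.19 log2 in GFP, 10.51, 10.21 and 10.27 in PGC-1a1, 9.66, 9.37 and 9.26 in PGC-1a2, 10.16, 10.13 and 10.11 in PGC-1a3, and 10.60, 10.43 and 10.74 in PGC-1a4. All PGC-1a2 arrays lay below GFP and all PGC-1a4 arrays above it, while PGC-1a3 lay within the GFP range. Scd2 fell by 0.61 ± 0.12 on the log2 scale in PGC-1a2 (adjusted p = 0.0071) and rose by 0.54 ± 0.12 in PGC-1a4 (adjusted p = 0.0084). With only 2 groups fitted the adjusted p was 0.099 and 0.066. In PGC-1a1 it was higher than every GFP array by a small margin, and the difference of 0.28 (95% interval 0.02 to 0.54, adjusted p = 0.22) did not pass. RefSeq on GRCm38.p6 places Scd3, Scd2, Scd4 and Scd1 next to each other on chromosome 19. The group means of Scd3 and Scd4 ranged from 3.66 to 3.79 and from 4.03 to 4.25 log2, near the lower quartile of the arrays, and limma called neither against GFP in any isoform.

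Fads1 and Fads2, the front-end desaturases of the polyunsaturated pathway, also lie next to each other on chromosome 19, with Fads3 on the far side of Fads2. Fads1 was 7.73, 7.45 and 7.70 log2 in GFP, 7.72, 7.54 and 7.40 in PGC-1a1, 7.71, 7.69 and 7.81 in PGC-1a2, 8.23, 8.16 and 8.02 in PGC-1a3, and 7.50, 7.18 and 7.54 in PGC-1a4. The PGC-1a3 arrays were above all others and the other isoforms overlapped GFP. Fads1 rose by 0.51 ± 0.12 log2 in PGC-1a3 (1.42-fold, adjusted p = 0.019), a call lost without GFP replicate 2 (0.42, adjusted p = 0.064), PGC-1a3 replicate 1 (adjusted p = 0.084) or PGC-1a3 replicate 2 (adjusted p = 0.069), and with only those 2 groups (adjusted p = 0.13). Fads2 was 8.12 to 8.28 in PGC-1a3 and 7.90 to 8.08 in GFP, a difference of 0.18 ± 0.11 (95% interval -0.05 to 0.41, adjusted p = 0.37). It was called against GFP in no isoform, and its difference in PGC-1a4 was -0.28 (95% interval -0.51 to -0.05, adjusted p = 0.11). That difference passed with quantile normalization (-0.28, adjusted p = 0.046) and with the interquartile-range covariate (-0.31, adjusted p = 0.037).

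The carboxylases differed from each other. Acacb, which encodes the form at the mitochondrial surface, was 6.56, 6.47 and 6.55 log2 in GFP, 6.90, 6.83 and 6.95 in PGC-1a1, 6.52, 6.40 and 6.39 in PGC-1a2, 6.19, 6.04 and 6.05 in PGC-1a3, and 7.50, 7.43 and 7.52 in PGC-1a4. Replicates lay close together, PGC-1a4 and PGC-1a1 were above all GFP arrays, PGC-1a3 was below them, and PGC-1a2 overlapped them. Acacb rose by 0.96 ± 0.06 log2 in PGC-1a4 (1.94-fold, adjusted p = 2.5e-06) and by 0.37 ± 0.06 in PGC-1a1 (adjusted p = 0.0042), and fell by 0.44 ± 0.06 in PGC-1a3 (adjusted p = 0.0023). When only 2 groups were fitted the adjusted p was 0.092 in PGC-1a1 and 0.11 in PGC-1a3. The difference in PGC-1a2 was -0.09 (95% interval -0.23 to 0.05).

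Acaca, the cytosolic form that feeds fatty acid synthase, ranged from 5.96 to 6.61 log2 over the 15 arrays and its groups overlapped throughout. Its differences from GFP were -0.07, 0.01, -0.01 and 0.04 in PGC-1a1, PGC-1a2, PGC-1a3 and PGC-1a4, each with an SE of 0.19. The 95% intervals reached down to -0.48 in PGC-1a1 and up to 0.45 in PGC-1a4, so a smaller change of Acaca was not detectable with these arrays.

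Comparing the isoforms directly tested whether they differed from one another. PGC-1a1 and PGC-1a2 differed in 6 of the 10 genes (19.2% of all clusters were called), PGC-1a1 and PGC-1a3 in 6 (14.0%), PGC-1a2 and PGC-1a4 in 6 (25.2%), and PGC-1a3 and PGC-1a4 in 7 (23.0%). PGC-1a1 and PGC-1a4, the pair that raised the same elongases, differed in 3 (9.08%), and PGC-1a2 and PGC-1a3 in 3 (9.27%). Elovl7, Elovl6 and Scd1 were chosen by their PGC-1a1 and PGC-1a2 values, so their part of these counts and their p-values between isoforms are descriptions too. Among the other 7 genes the counts, in the same order of pairs, were 3, 3, 3, 5, 1 and 2. Elovl7 was higher in PGC-1a1 than in PGC-1a4 by 1.56 ± 0.15 log2 (adjusted p = 1e-04) and Elovl6 by 0.62 ± 0.16 (adjusted p = 0.031), whereas the Acacb difference was -0.59 ± 0.06 (adjusted p = 0.00025). The Elovl6 difference lost its call without any 1 of PGC-1a1 replicates 1 and 2 or PGC-1a4 replicates 1, 2 and 3, with only those 2 groups (adjusted p = 0.059), and with median centring (adjusted p = 0.056). Scd2 was not called for that pair (-0.26, 95% interval -0.523 to -0.0029, limma unadjusted p = 0.048, adjusted p = 0.23), nor was Scd1 (0.11, 95% interval -0.24 to 0.46).

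Acacb was the gene called in all 6 isoform pairs. PGC-1a3 minus PGC-1a4 was -1.39 ± 0.06 log2 (adjusted p = 1.7e-07), and it was higher in PGC-1a2 than in PGC-1a3 by 0.34 (adjusted p = 0.0063, and 0.073 with only those 2 groups fitted). The order of its means was PGC-1a4, PGC-1a1, GFP, PGC-1a2 and PGC-1a3, and only GFP and PGC-1a2 among neighbours in that order did not differ by the test. Elovl7 separated 5 of the pairs, and the one it did not separate was PGC-1a2 and PGC-1a3 (-0.48, 95% interval -0.80 to -0.17, adjusted p = 0.059). Scd1 also separated 5 pairs (PGC-1a1 against PGC-1a3 no longer without PGC-1a1 replicate 2 or 3 or PGC-1a3 replicate 1), among them PGC-1a2 from PGC-1a3 by 1.24 ± 0.16 (adjusted p = 0.00095). Scd2 was called for PGC-1a1 minus PGC-1a2 (0.90, adjusted p = 0.00021) and PGC-1a2 minus PGC-1a3 (-0.70, adjusted p = 0.0038). It was also called for PGC-1a2 minus PGC-1a4 (-1.16, adjusted p = 1.5e-05) and PGC-1a3 minus PGC-1a4 (-0.46, adjusted p = 0.014). The last call was lost without PGC-1a4 replicate 3 (adjusted p = 0.065).

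The front-end desaturases and Elovl1 also differed between isoforms, although Fads2 and Elovl1 were called in none against GFP. Fads2 was higher in PGC-1a3 than in PGC-1a4 by 0.46 ± 0.11 log2 (adjusted p = 0.0063), and Fads1 by 0.73 ± 0.12 (adjusted p = 0.00052). Fads1 was also lower in PGC-1a1 than in PGC-1a3 (-0.58, adjusted p = 0.0051). Elovl1 was lower in PGC-1a1 than in PGC-1a2 (-0.29, adjusted p = 0.0082) and PGC-1a3 (-0.27, adjusted p = 0.019), and higher in PGC-1a2 and PGC-1a3 than in PGC-1a4 by 0.27 (adjusted p = 0.0091) and 0.25 (adjusted p = 0.018). With median centring the Elovl1 calls between PGC-1a1 and PGC-1a2 (adjusted p = 0.071), PGC-1a1 and PGC-1a3 (adjusted p = 0.13) and PGC-1a3 and PGC-1a4 (adjusted p = 0.079) were lost. That of PGC-1a1 and PGC-1a3 was also lost without PGC-1a1 replicate 2 or 3 or PGC-1a3 replicate 1 or 2, that of PGC-1a3 and PGC-1a4 without PGC-1a3 replicate 2 or PGC-1a4 replicate 1, and with 2 groups fitted the adjusted p was 0.054 for PGC-1a1 against PGC-1a2, 0.051 for PGC-1a1 against PGC-1a3 and 0.056 for PGC-1a2 against PGC-1a4. Elovl5 and Acaca were called in 0 of the 6 pairs by limma, and Elovl5 reached an unadjusted p under 0.05 in 2 of them and Acaca in 0.

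**Figure D3:**
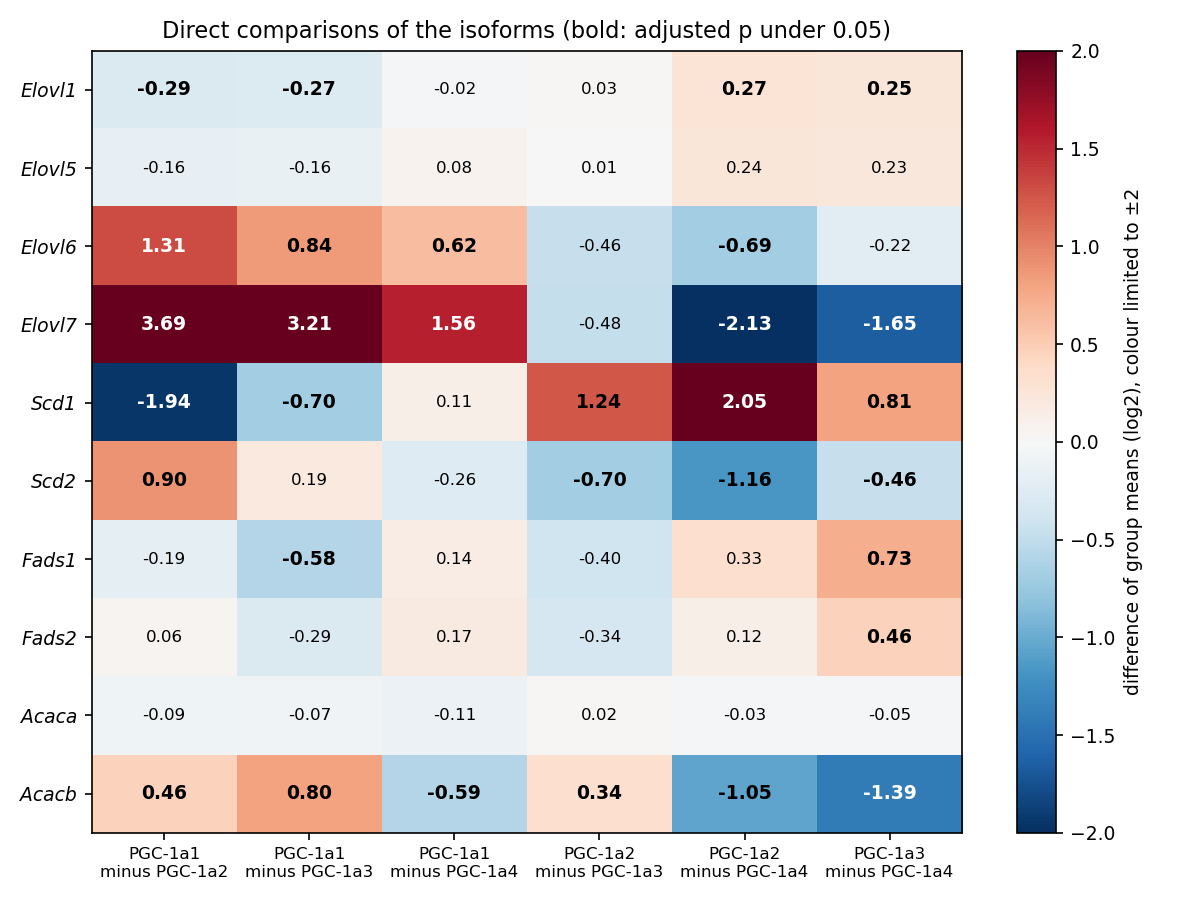
Difference of group means in log2 for each gene (rows) in the 6 direct comparisons of isoforms (columns), printed in each cell and shown by colour limited to 2 in either direction. Bold values have an adjusted p under 0.05, and Acacb is bold in all 6 columns, from 0.80 in PGC-1a1 minus PGC-1a3 to -1.39 in PGC-1a3 minus PGC-1a4.

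The balance between related enzymes was taken on each array as the difference of 2 log2 signals, set to 0 at its GFP mean, which cancels a shift common to the array. Relative to GFP, Scd1 against Scd2 moved by 2.51, 2.61 and 2.48 log2 on the PGC-1a2 arrays, by 0.68, 0.57 and 0.51 on the PGC-1a3 arrays, by -0.20, -0.27 and -0.44 on the PGC-1a1 arrays and by -0.55, -0.85 and -0.63 on the PGC-1a4 arrays. The GFP arrays lay between -0.12 and 0.21, so no isoform overlapped GFP, and PGC-1a2 and PGC-1a3 lay on the opposite side of GFP from PGC-1a1 and PGC-1a4. Acacb against Acaca moved by 0.92 ± 0.18 (SD, n = 3) in PGC-1a4 and by -0.43 ± 0.08 in PGC-1a3, both without overlap with GFP, and by 0.44 ± 0.34 in PGC-1a1, which overlapped GFP. Elovl7 against Elovl6 moved by 2.55 ± 0.26 in PGC-1a1 and 1.61 ± 0.10 in PGC-1a4. Fads1 against Fads2 moved by 0.27 ± 0.09 in PGC-1a2 and 0.33 ± 0.09 in PGC-1a3, and in PGC-1a2 neither gene alone was called. Over 20 such comparisons with GFP, every one without overlap had an exact two-sided permutation p of 0.1, the smallest that 3 arrays against 3 allow, and a Benjamini-Hochberg adjusted p of 0.154. Elovl7, Elovl6 and Scd1 were chosen partly by their differences from GFP on these arrays. Balances that hold them are therefore descriptions, lack of overlap included, and they also entered that correction.

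**Figure D4:**
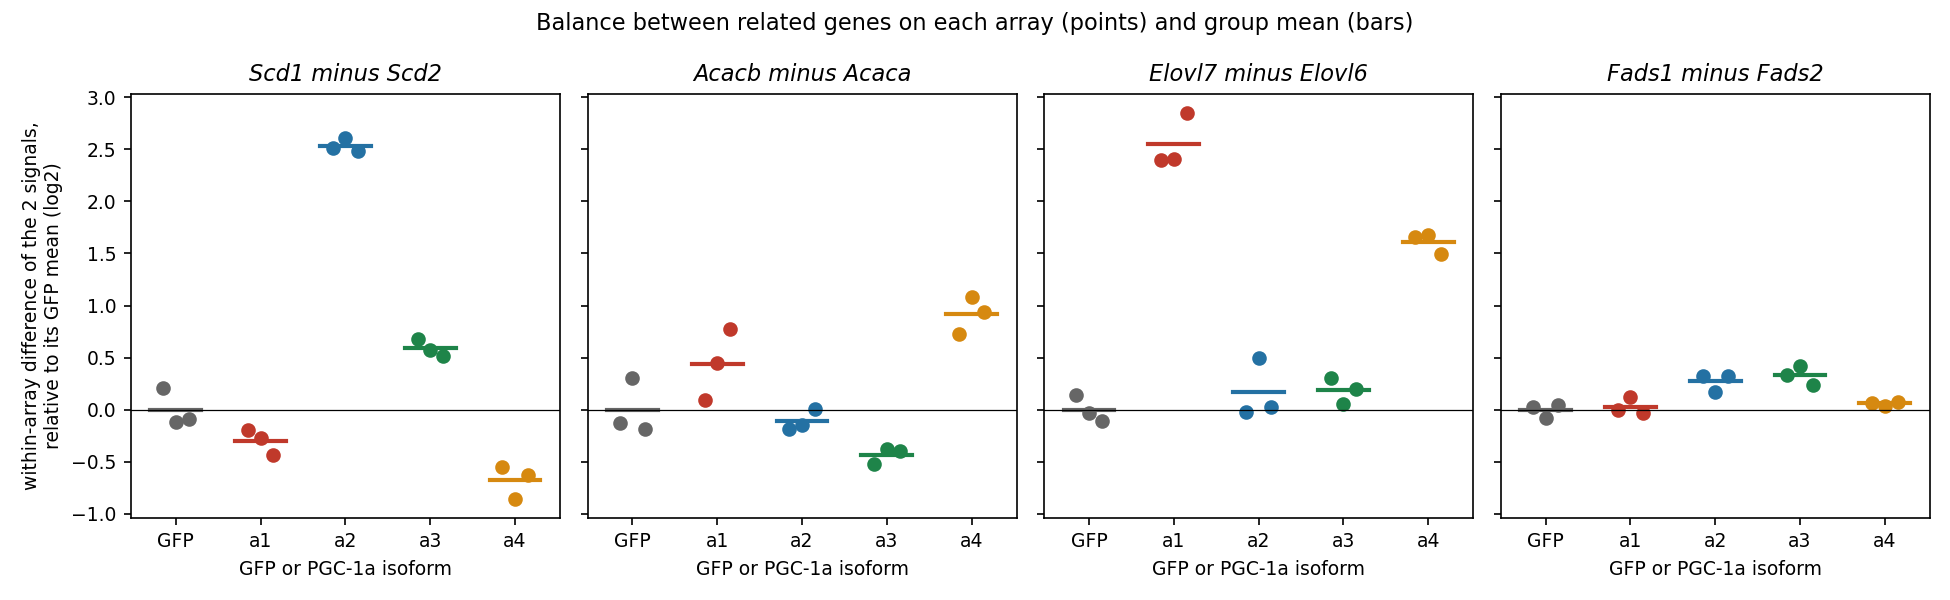
Within-array difference of the log2 signals of 2 related genes, relative to its GFP mean (y axis), for the 3 arrays of each group (points) and group means (bars). For Scd1 minus Scd2 the PGC-1a2 arrays lie between 2.48 and 2.61 and the PGC-1a4 arrays between -0.85 and -0.55. Elovl7, Elovl6 and Scd1 were chosen partly by their differences from GFP.

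The genes whose values over the 15 arrays lay closest to those of Elovl7, Elovl6 and Scd1 were found by the root mean square difference in log2 after each gene was set relative to its own GFP mean, over 14539 clusters. For Elovl7 the closest was Ppargc1a itself (0.27), followed at a distance by Cend1 (0.88), Car2 (1.11) and Nudt19 (1.13), where the root mean square of Elovl7's own values was 2.06. Elovl7 and Ppargc1a were thus higher by 3.90 and 4.08 in PGC-1a1 and by 2.34 and 1.93 in PGC-1a4. The Ppargc1a signal includes the introduced transcripts, whose isoforms carry different exons, so it does not measure dose. For Elovl6 the closest were Mrps27 (0.23) and Mrpl34 (0.28), which encode mitochondrial ribosomal proteins, with Osbpl1a (0.26) and Ezr (0.28), against 0.74 for Elovl6 itself. For Scd1 they were Palmd (0.29), Angptl4 (0.33), whose product inhibits lipoprotein lipase, Nxf7 (0.36) and B3galt5 (0.37), against 0.93 for Scd1 itself. In PGC-1a2, Angptl4 rose by 1.73 log2 (adjusted p = 0.00037), beside 1.92 for Scd1.

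The rest of the elongation and desaturation machinery, 17 measured genes of 18 listed, was compared with GFP in the same fit. In it, 0 were called in PGC-1a1 (3 higher and 2 lower at an unadjusted p under 0.05), 1 rose and 1 fell in PGC-1a2, 1 rose and 0 fell in PGC-1a3, and 1 rose and 1 fell in PGC-1a4, where 6.84%, 9.33%, 7.99% and 14.3% of all clusters were called. Between isoforms, 6 of the 17 were called for PGC-1a1 against PGC-1a2 (19.2% of all clusters) and 4 for PGC-1a2 against PGC-1a4 (25.2%). There were 2 for PGC-1a1 against PGC-1a3 (14.0%), 1 for PGC-1a1 against PGC-1a4 (9.08%), 2 for PGC-1a3 against PGC-1a4 (23.0%) and, by limma, 0 for PGC-1a2 against PGC-1a3 (9.27%, with 1 at an unadjusted p under 0.05). The list's medians were -0.01, -0.02, -0.02 and -0.03 log2 in PGC-1a1 to PGC-1a4. Elovl4, an elongase of very long polyunsaturated chains, rose by 0.48 ± 0.08 in PGC-1a2 (adjusted p = 0.002) and 0.43 ± 0.08 in PGC-1a3 (adjusted p = 0.0056), and fell by 0.36 ± 0.08 in PGC-1a4 (adjusted p = 0.0063). Cyb5b, an outer mitochondrial membrane cytochrome b5, fell by 0.29 in PGC-1a2 (adjusted p = 0.034) and rose by 0.44 in PGC-1a4 (adjusted p = 0.0022).

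Among genes that supply acetyl-CoA, NADPH and palmitate, 5 of 10 were measured, and their medians were -0.08, 0.01, 0.02 and -0.13 log2 in PGC-1a1 to PGC-1a4. Idh1, the cytosolic NADPH-producing isocitrate dehydrogenase, rose by 0.54 ± 0.11 in PGC-1a1 (adjusted p = 0.014) and 0.68 ± 0.11 in PGC-1a4 (adjusted p = 0.0016) and fell by 0.53 ± 0.11 in PGC-1a2 (adjusted p = 0.013). Pgd of the pentose phosphate pathway rose by 0.55 ± 0.08 in PGC-1a2 (adjusted p = 0.001) and fell by 0.39 ± 0.08 in PGC-1a4 (adjusted p = 0.0037). The citrate carrier gene Slc25a1 fell by 0.41 in PGC-1a2 (adjusted p = 0.0071) and by 0.47 in PGC-1a4 (adjusted p = 0.0018). Fasn, the fatty acid synthase gene, averaged 8.84 to 9.10 log2 over the groups, and Acly, the ATP citrate lyase gene, 8.29 to 8.57. Neither was called against GFP in any isoform. Between isoforms, limma called Fasn for PGC-1a1 minus PGC-1a2 (-0.24, adjusted p = 0.0068) and PGC-1a2 minus PGC-1a3 (0.22, adjusted p = 0.023). Fasn was also called for PGC-1a2 minus PGC-1a4 (0.26, adjusted p = 0.0027), and Acly for PGC-1a1 minus PGC-1a3 (-0.28, adjusted p = 0.01). In PGC-1a3 against GFP, limma called 0 of the 5 (2 higher and 1 lower at an unadjusted p under 0.05), where 7.99% of all clusters were called.

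Of 24 measured regulators of lipogenic genes and of acetyl-CoA carboxylase, out of 26 listed, 5 rose and 3 fell in PGC-1a1, 1 and 3 in PGC-1a2, 0 and 3 in PGC-1a3, and 5 and 5 in PGC-1a4. Their medians were 0.02, -0.06, -0.06 and 0.09 log2. In the same contrasts, 4.44%, 4.56%, 5.02% and 7.05% of all clusters were called higher and 2.4%, 4.77%, 2.97% and 7.22% lower. Srebf1, the lipogenic transcription factor gene, averaged 7.04 to 7.18 log2 over the 5 groups and was called in no isoform. Esrra, the estrogen-related receptor alpha gene and a known partner of PGC-1a, rose by 0.97 ± 0.08 in PGC-1a1 (adjusted p = 1.9e-05) and 1.11 ± 0.08 in PGC-1a4 (adjusted p = 3.3e-06), and fell by 0.49 in PGC-1a2 (adjusted p = 0.0026) and 0.31 in PGC-1a3 (adjusted p = 0.033). Prkaa2, a catalytic subunit of the AMP-activated kinase that inhibits both carboxylases, rose by 0.30 in PGC-1a1 (adjusted p = 0.014) and 0.37 in PGC-1a4 (adjusted p = 0.0021). Other subunit genes of that kinase went both ways. Prkag3 fell by 0.48 in PGC-1a1 (adjusted p = 0.0032) and 0.33 in PGC-1a3 (adjusted p = 0.028), while Prkag1 rose by 0.40 in PGC-1a1 (adjusted p = 0.025). In PGC-1a2, Prkab1 rose by 0.37 (adjusted p = 0.0023) and Prkab2 fell by 0.37 (adjusted p = 0.012). Pparg fell by 0.34 in PGC-1a3 (adjusted p = 0.018) and 0.64 in PGC-1a4 (adjusted p = 0.00014). Mid1ip1, which encodes an activator of acetyl-CoA carboxylase, fell by 0.52 in PGC-1a4 (adjusted p = 0.014). In that isoform Trib3 of the same list fell by 1.36 (adjusted p = 0.00011) and Scap rose by 0.35 (adjusted p = 0.003). Trib3 also fell by 0.60 in PGC-1a1 (adjusted p = 0.036). Any relation of these genes to Acacb was not tested.

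**Figure D5:**
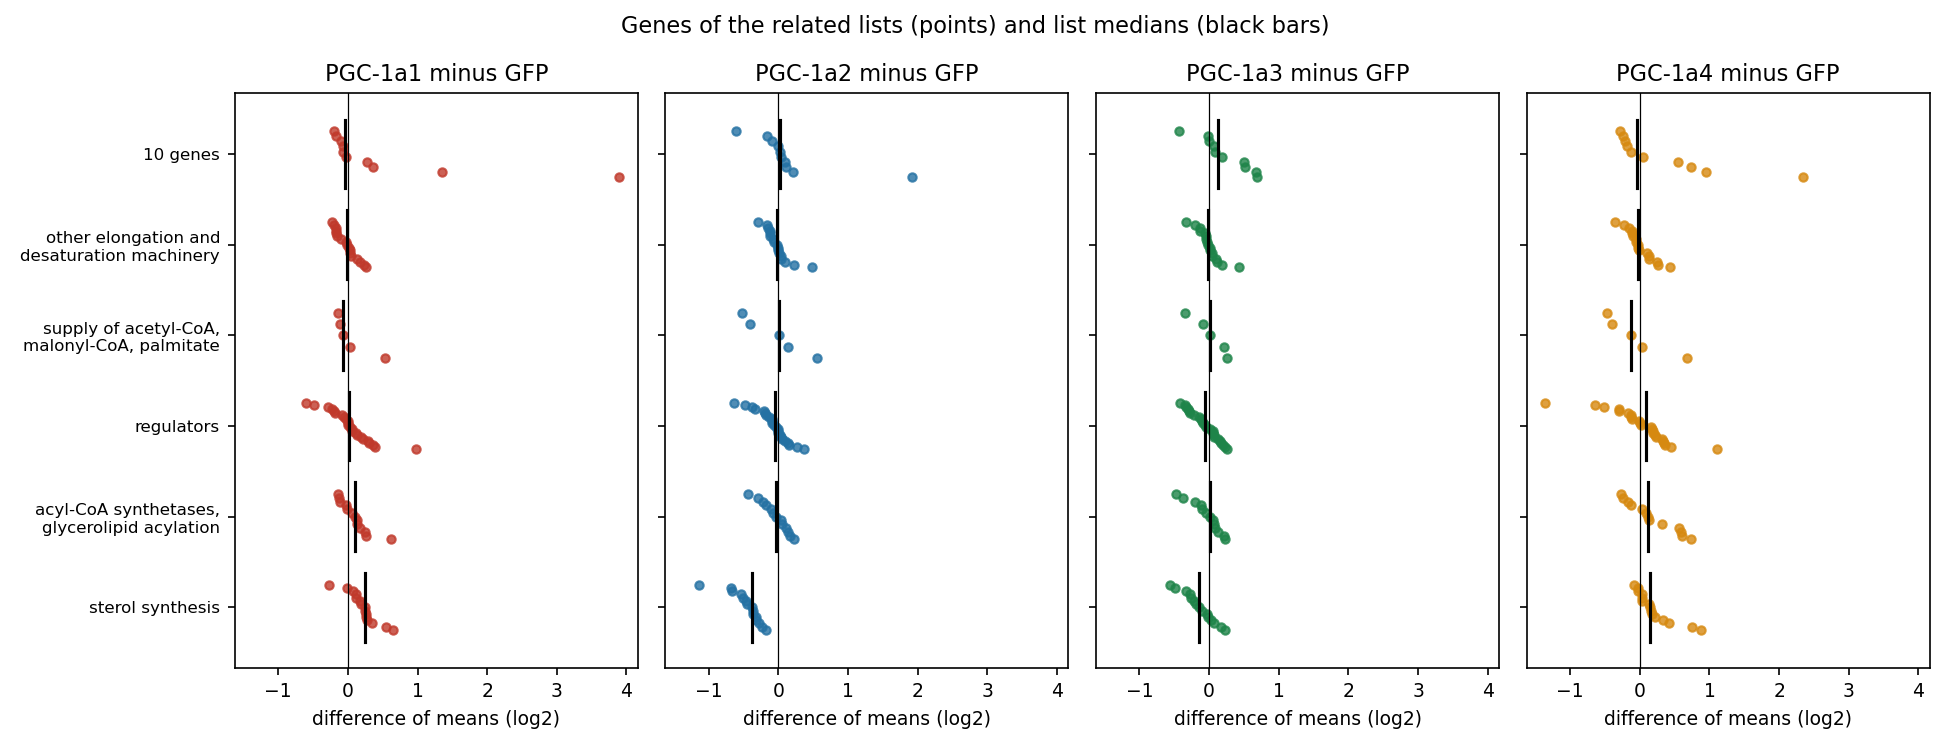
Difference of each gene's mean from GFP in log2 (x axis) for the 10 genes and for 5 related lists (rows), in 1 panel per isoform, with black bars at list medians. The point farthest from 0 is Elovl7 at 3.90 in PGC-1a1. Elovl7, Elovl6 and Scd1 were chosen partly by such differences, so the spread of the 10 genes is not comparable with that of the lists. The median of the 10 genes stays between -0.05 and 0.13 in all 4 panels.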

How the data were processed

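Total RNA was measured on 15 Affymetrix mouse exon arrays, 3 in each of 5 groups. The authors deposited log2 signals for 23332 transcript clusters, made with Partek per the submitters' processing notes. How background and scale were corrected, the genome build and the software version were not given in the sources used here. Of the clusters, 14996 had 1 gene symbol, 1019 several and 7317 none, and 55 of the first kind had no match in RefSeq. Values were used as deposited, with no filter. One linear model with a mean per group was fitted to the 15 arrays (R 4.3.3, limma 3.58.1), and its variances were moderated with eBayes (residual degrees of freedom 10, prior 2.09). P-values are two-sided and were corrected per contrast for all clusters by the Benjamini-Hochberg method. A call is an adjusted p under 0.05. Differences carry the moderated SE. Since 3 arrays against 3 cannot give an exact p under 0.1, calls depend on the variance pooled across groups and clusters. The fit was tested on simulated data.

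The 10 genes, the related lists, the marker lists and the tests were chosen with earlier results of these data known. All 10 genes are named in every comparison. From a related list, up to 6 called genes with the smallest p per contrast could be named, and the 4 genes closest to Elovl7, Elovl6 and Scd1 are named. Outside these, Fasn, Acly, Srebf1, Scd3 and Scd4, which were not called against GFP, are named for their roles or position. The settings changed in turn were the scale (quantile normalization or median centring), the clusters tested (those above percentile 25 or 50 of all values, or with 1 symbol), averaging over the clusters of a gene, and the arrays fitted (2 groups only, or 1 array left out). The model was also changed, with array weights, a robust variance trend, a covariate for each array's interquartile range, or a replicate block.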

Additional observations from a re-analysis of the deposited data

Results flagged for a closer look

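Scd2 and Acacb were each called in opposite directions against GFP by different isoforms. In the same fit, the direct difference between such isoforms is larger than either difference from GFP. Its passing was therefore largely fixed by those calls. The separation of their arrays likewise follows from both groups lying clear of GFP, so neither is further evidence. For Scd2 the difference between PGC-1a2, where it fell by 0.61 log2 against GFP, and PGC-1a4, where it rose by 0.54, was -1.16 (limma adjusted p = 1.5e-05), and all 3 PGC-1a2 arrays lay below all 3 PGC-1a4 arrays. For Acacb, which fell by 0.44 in PGC-1a3, the difference of PGC-1a1 from PGC-1a3 was 0.80 (adjusted p = 1.1e-05) and that of PGC-1a3 from PGC-1a4 was -1.39 (adjusted p = 1.7e-07), again with no overlap of arrays. Groups of 3 arrays are too small for a test of single outlying arrays.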

How the results depend on the processing

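Of 71 differences of the 10 genes, 39 kept their direction and side of the threshold under all 26 alternatives, including Elovl7 and Elovl6 in PGC-1a1, Elovl7 and Acacb in PGC-1a4 and Scd1 in PGC-1a2. Every difference that changed sign was one that had not passed. Scd1 in PGC-1a1 was 0.0507 with quantile normalization and 0.0503 with median centring. Median centring also gave Elovl5 0.0206 in PGC-1a2 and 0.0194 in PGC-1a3, and Acaca 0.0234 in PGC-1a3, where quantile normalization gave 0.0106. Array weights gave -0.16 for Elovl6 and -0.14 for Acaca in PGC-1a2 and -0.13 for Acaca in PGC-1a4, and the interquartile-range covariate gave -0.0166, -0.0637 and -0.0416. With 1 array left out, Scd1 ranged from -0.16 to 0.0760 in PGC-1a1 and -0.23 to 0.0364 in PGC-1a4, Fads1 from -0.16 to 0.0020 in PGC-1a1, Elovl6 from -0.10 to 0.20 in PGC-1a2, and Elovl5 from -0.12 to 0.0652 in PGC-1a2 and -0.13 to 0.0615 in PGC-1a3. Acaca ranged from -0.26 to 0.0685, -0.17 to 0.12, -0.19 to 0.10 and -0.14 to 0.15 in PGC-1a1 to PGC-1a4. The genes called among the 10 against GFP, 3, 2, 4 and 4, were 5 with array weights and 5 with the covariate in PGC-1a1, and 7 with quantile normalization and 7 with the covariate in PGC-1a4. With only 2 groups fitted, and so fewer arrays, they were 1, 0 and 2 in PGC-1a2, PGC-1a3 and PGC-1a4. With 1 array left out they were 1 to 4 in PGC-1a3. Between PGC-1a2 and PGC-1a3 the 3 became 5 with quantile normalization, 6 and 7 with the filters at percentiles 25 and 50, 6 with only clusters of 1 symbol, 6 with the variance trend and 7 with array weights, and 3 to 5 with 1 array left out. The cause of these shifts was not tested.

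Over all clusters, 1596, 2177, 1865 and 3331 were called against GFP. With only 2 groups the counts were 393, 173, 36 and 1014. Array weights gave 2994, 3492 and 3072 in PGC-1a1 to PGC-1a3, the covariate 2430 and 3350 in PGC-1a1 and PGC-1a2, and median centring 1354 and 1127 in PGC-1a2 and PGC-1a3. With 1 array left out the ranges in PGC-1a1 to PGC-1a3 were 951 to 1609, 1231 to 2166 and 865 to 1775. For PGC-1a1 against PGC-1a3 the 3277 calls became 2097 with 2 groups, 5346 with array weights and 2123 to 3757 with 1 array left out. For PGC-1a1 against PGC-1a4 the 2119 became 910, 3358 and 1217 to 2577, and 1364 with median centring. For PGC-1a2 against PGC-1a3 the 2164 became 693, 4009 and 1105 to 2598, and 1215 with median centring. The split of higher and lower calls in PGC-1a1 was 1036 and 560, 1110 and 214 with median centring, 1418 and 1576 with array weights, and 1216 and 1214 with the covariate. In PGC-1a3 it was 1171 and 694, and 1072 and 1181 with the covariate. In PGC-1a4 it was 1646 and 1685, and 1504 and 975 with median centring. Between PGC-1a1 and PGC-1a2 it was 2388 and 2100, and 2375 and 1306 centred, and between PGC-1a1 and PGC-1a3 it was 1513 and 1764, and 1389 and 833 centred.

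The replicate numbers were not taken as pairs, since the labels do not say that they pair arrays. Of 30 same-numbered pairs of arrays, 11 had deviations correlated above 0.1 (range -0.218 to 0.36), and 6 of 15 arrays lay closest to one of their own number. GFP 1 correlated at 0.32 with PGC-1a1 1 and with PGC-1a3 1, but at -0.023 with PGC-1a2 1. GFP 2 correlated at 0.44 with PGC-1a3 3, of another number. These values do not settle whether arrays of the same number belong together. With a replicate block the genes called against GFP stayed at 3, 2, 4 and 4, and between PGC-1a2 and PGC-1a3 they were 5.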

Other observations

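Genes that activate fatty acids or build them into lipids were read beside these enzymes. Of 13 measured genes of acyl-CoA synthesis and glycerolipid acylation, out of 16 listed, 1 rose and 0 fell in PGC-1a1, 0 and 3 in PGC-1a2, 1 and 2 in PGC-1a3, and 5 and 2 in PGC-1a4, with medians of 0.11, -0.04, 0.01 and 0.12 log2. Of all clusters, 4.44%, 4.56%, 5.02% and 7.05% were called higher in these contrasts and 2.4%, 4.77%, 2.97% and 7.22% lower. Lpcat3, which puts polyunsaturated chains into phospholipids, rose by 0.60 ± 0.05 (SE) in PGC-1a4 (limma adjusted p = 1.6e-05) and fell by 0.44 in PGC-1a2 (adjusted p = 0.00041) and 0.48 in PGC-1a3 (adjusted p = 0.00035). Gpam, which begins glycerolipid synthesis at the mitochondrion, rose by 0.74 ± 0.07 in PGC-1a4 (adjusted p = 3e-05), and Dgat1, which completes triglyceride synthesis, by 0.62 in PGC-1a1 (adjusted p = 0.0012) and 0.56 in PGC-1a4 (adjusted p = 0.0013).

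Of 15 measured sterol synthesis genes, out of 20 listed, 3 rose and 0 fell in PGC-1a1, 0 and 9 in PGC-1a2, 0 and 2 in PGC-1a3, and 3 and 0 in PGC-1a4, with medians of 0.24, -0.37, -0.14 and 0.14 log2. Over all clusters, in the same order of isoforms, 4.44%, 4.56%, 5.02% and 7.05% were called higher and 2.4%, 4.77%, 2.97% and 7.22% lower. Msmo1, a sterol methyl oxidase gene, fell by 1.14 ± 0.07 in PGC-1a2 (adjusted p = 2.7e-06), where Scd1 was higher by 1.92 and Scd2 fell by 0.61.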
